A study of Sus scrofa with 9 samples.

Results

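The ion channel genes of the neonatal pig left ventricle were followed over the first postnatal fortnight. The table rows studied are those whose gene name starts with KCN, HCN, CACN or SCN, the families that hold the voltage-gated potassium, pacemaker, calcium and sodium channels, with at least 1 TPM (a length-normalised share of the transcripts in a library) in at least 3 of 9 libraries. Of the 22629 rows of the table, 136 carried such a name and 32 met the expression rule. Left ventricular myocardium of untreated wild type pigs was sampled at postnatal day 0 (newborns below), day 7 and day 15, and each age has 3 libraries. No transgene, drug or operation is part of any group. Whether each library is its own animal is not in the labels, and p-values therefore measure only the spread between these samples, which may be technical. Values in each library are given in the order of the replicate numbers, which are 4, 5 and 6 at day 0, 2, 5 and 6 at day 7, and 1, 2 and 6 at day 15.

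The label of voltage-gated channels covers the 32 genes only in part. There were 9 pore subunits of voltage-gated or pacemaker channels and 11 auxiliary subunits. The other 12 were 5 inward rectifiers, 3 tandem-pore leak channels, 3 genes of calcium- or sodium-activated potassium channels, and SCNM1, a zinc finger protein of RNA splicing that is no channel.

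In a ventricular muscle cell, sodium current gives the upstroke of the action potential and L-type calcium channels carry the current that triggers contraction. Potassium channels then return the membrane to rest, first through transient outward currents, then through the rapid (KCNH2) and slow (KCNQ1 with KCNE1) delayed rectifiers. Inward rectifiers hold the resting potential. Pore subunits set which ion passes and how the channel responds to voltage, and auxiliary subunits change its gating and its delivery to the membrane.

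The members spanned a wide range of levels, and most of their summed TPM came from few genes. The inward rectifier KCNJ4 had a mean of 126 TPM over the 9 libraries, 29.7% of the members' total. It was followed by KCNJ5 (40.7 TPM), KCNQ1 (30.3 TPM) and KCNH2 (29.6 TPM), and these 4 genes made up 53.4% of the total. The ratio of KCNH2 to KCNQ1 was 1.03 to 1.15 at day 0, 0.721 to 0.856 at day 7 and 0.837 to 1.26 at day 15. Which of the pair was higher thus changed between libraries, and their difference was not tested. A mean of at least 10 TPM was found for 12 members, 8 lay between 2 and 10 TPM, and 12 lay under 2 TPM. The summed TPM of the members was 414 ± 65.9 at day 0, 416 ± 52.4 at day 7 and 446 ± 81.3 at day 15 (SD, n = 3 for this and each later mean).

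**Figure D1:**
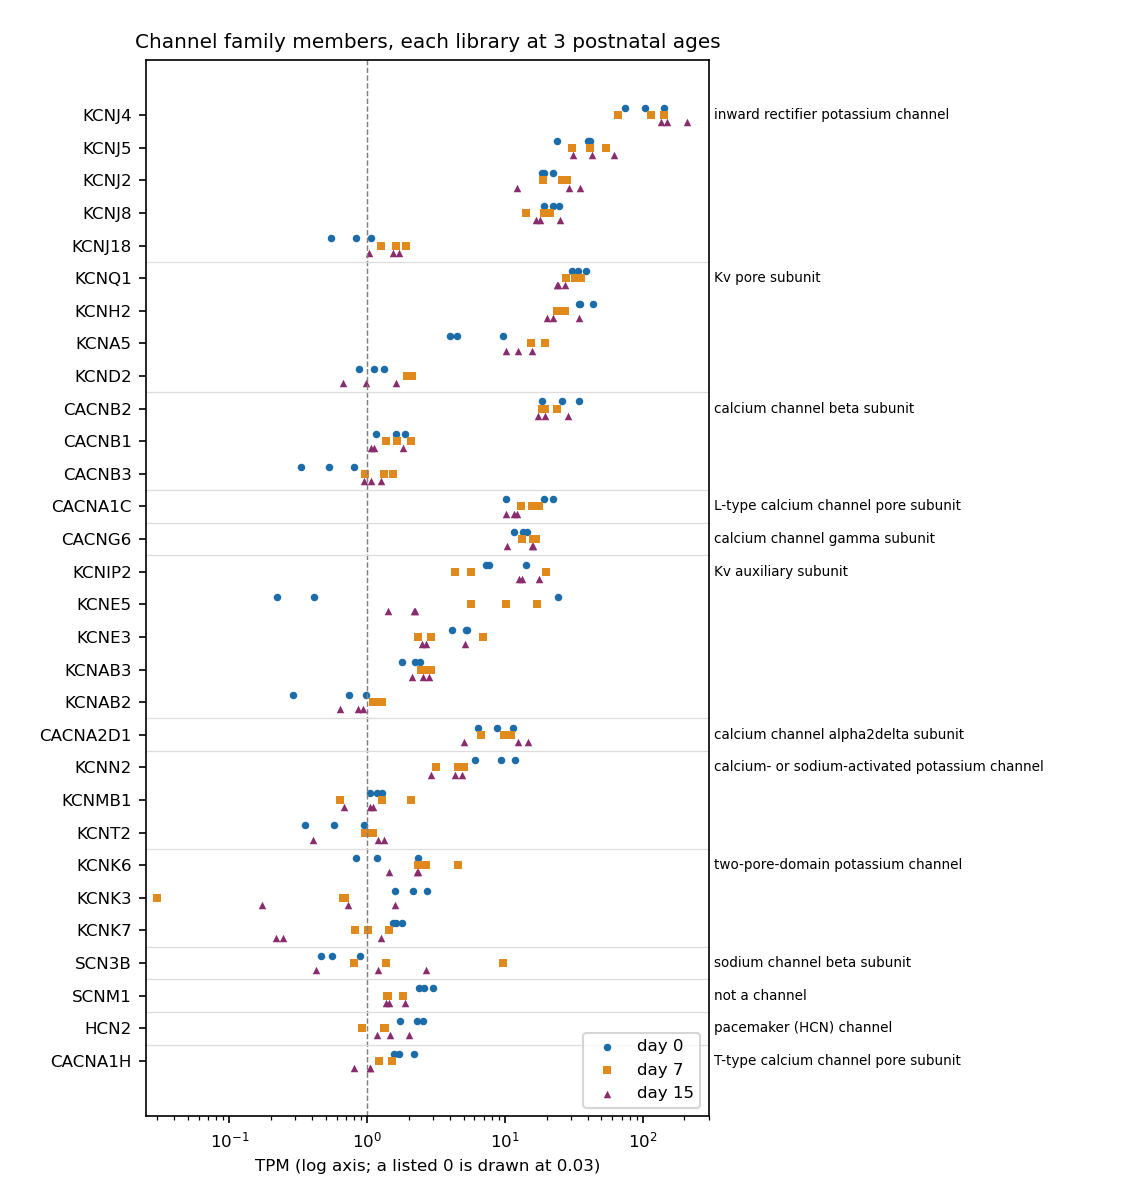
TPM of 30 of the 32 members in each library (log axis), ordered by class and level, with circles for day 0, squares for day 7 and triangles for day 15. The dashed line marks 1 TPM. KCNJ4 is highest at 66 to 207 TPM, and the day 7 and day 15 values of KCNA5 lie above all of its day 0 values.

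Some members met the expression rule through few libraries. At least 1 TPM was reached in all 9 libraries by 19 members, and in only 3 or 4 libraries by 5. KCNAB2, a beta subunit of Shaker-type potassium channels, passed through its day 7 libraries alone (1.11, 1.27 and 1.28 TPM). It had 0.288 to 0.973 TPM in the others, so a higher day 7 value was a condition of its entry. CACNB3, KCNT2 and SCN3B had 0 newborn libraries at 1 TPM or more and 2 at each later age. For these genes, higher values at the later ages were a condition of entry. Just outside, with 2 libraries at 1 TPM or more, were KCNJ14, SCN4B, SCN7A and CACNA1G. Of the 104 rows left out, 95 had no library at 1 TPM, 9 of them listed at 0 throughout.

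Several channels known from ventricular muscle were below the rule. Of 32 ventricular action potential genes on a list drawn up by name, 16 were members, 12 had a row below the rule, and 4 had no row under their symbol. The transient outward pore subunits KCND3 and KCNA4 did not exceed 0.221 and 0.0910 TPM in any library. The pacemaker gene HCN4 reached 0.331 TPM, the L-type pore subunit CACNA1D 0.0948 TPM, and the leak channel KCNK2 0.159 TPM. Rows listed by Ensembl identifier supplied KCNE1 (ENSSSCG00000012049) and KCNJ3 (ENSSSCG00000036078), which the rule does not count as members, while no values under the names KCNJ11 and KCNJ12 were analysed here.

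Between day 0 and day 7, KCNA5 rose, and KCNN2 and KCNK3 were among the 3 members that fell. For KCNK3, a newborn level above that of day 7 was a condition of meeting the expression rule. Between day 0 and day 15, KCNA5 was again higher, and KCNN2, KCNK7, CACNA1H and SCNM1 were among the 5 that were lower. No member passed between day 7 and day 15 on the deposited scale. Among carriers of the ventricular action potential, CACNA1C, KCNQ1, KCNH2 and KCNJ2 did not pass in any of these comparisons on that scale.

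In numbers, 4 of the 32 members passed at day 7 against day 0, 1 up and 3 down (limma on log2(TPM + 1), Benjamini-Hochberg adjusted p under 0.05 over all 12268 genes tested), which is 12.5%, beside 16.6% of all genes tested (7.67% higher and 8.88% lower). At day 15 against day 0, 6 of 32 passed, 1 up and 5 down (18.8%), beside 23.9% of all genes (5.53% higher and 18.4% lower). At day 15 against day 7, 0 of 32 passed by limma, beside 0.171% of all genes (0.0408% higher and 0.130% lower), and 2 had an unadjusted p under 0.05 (KCND2 and KCNE5, chosen here after their values were seen). An F test over the 3 ages called 4 members (KCNA5, KCNN2 and KCNK3 among them), 12.5% beside 22% of all genes. These shares are near or under the background and are no result about the members. The comparisons share libraries, so their calls are not independent of each other.

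The median log2 fold change of the members was 0.06 at day 7 against day 0, -0.13 at day 15 against day 7 and -0.14 at day 15 against day 0, and over all genes tested it was -0.04, -0.15 and -0.19. A level of at least 1 TPM was reached by 11290 to 12164 genes per library. The medians depend on the scale. The single most abundant row (ENSSSCG00000032277, with no gene name) took 24.0% to 46.0% of all TPM in a library, with the highest share in day 15 replicate 1. Median-of-ratios scaling moved the median of all genes by 0.20 at day 15 against day 0 and turned the called members there to 4 up and 2 down. Of all genes called there, 50.3% were up with that scaling and 23.1% on the deposited scale. It called 10 members at day 7 against day 0, 5 up and 5 down, beside 30.9% of all genes, and its 6 calls at day 15 against day 0 stood beside 31% of all genes. The libraries of both ages did not overlap for 16 of the 32 members at day 7 against day 0, 8 above and 8 below (50%, beside 41.4% of all genes, 17.6% above and 23.8% below). This held at day 15 against day 7 for 6 members, 0 above and 6 below (18.8%, beside 19.4% of all genes, 1.46% above and 17.9% below). At day 15 against day 0 it held for 10 members, 2 above and 8 below (31.2%, beside 39.9% of all genes, 9.45% above and 30.5% below). CACNB3, KCNAB2, KCNT2 and KCNK3 are among the members without overlap in these counts. For them, high values at certain ages were a condition of meeting the expression rule.

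**Figure D2:**
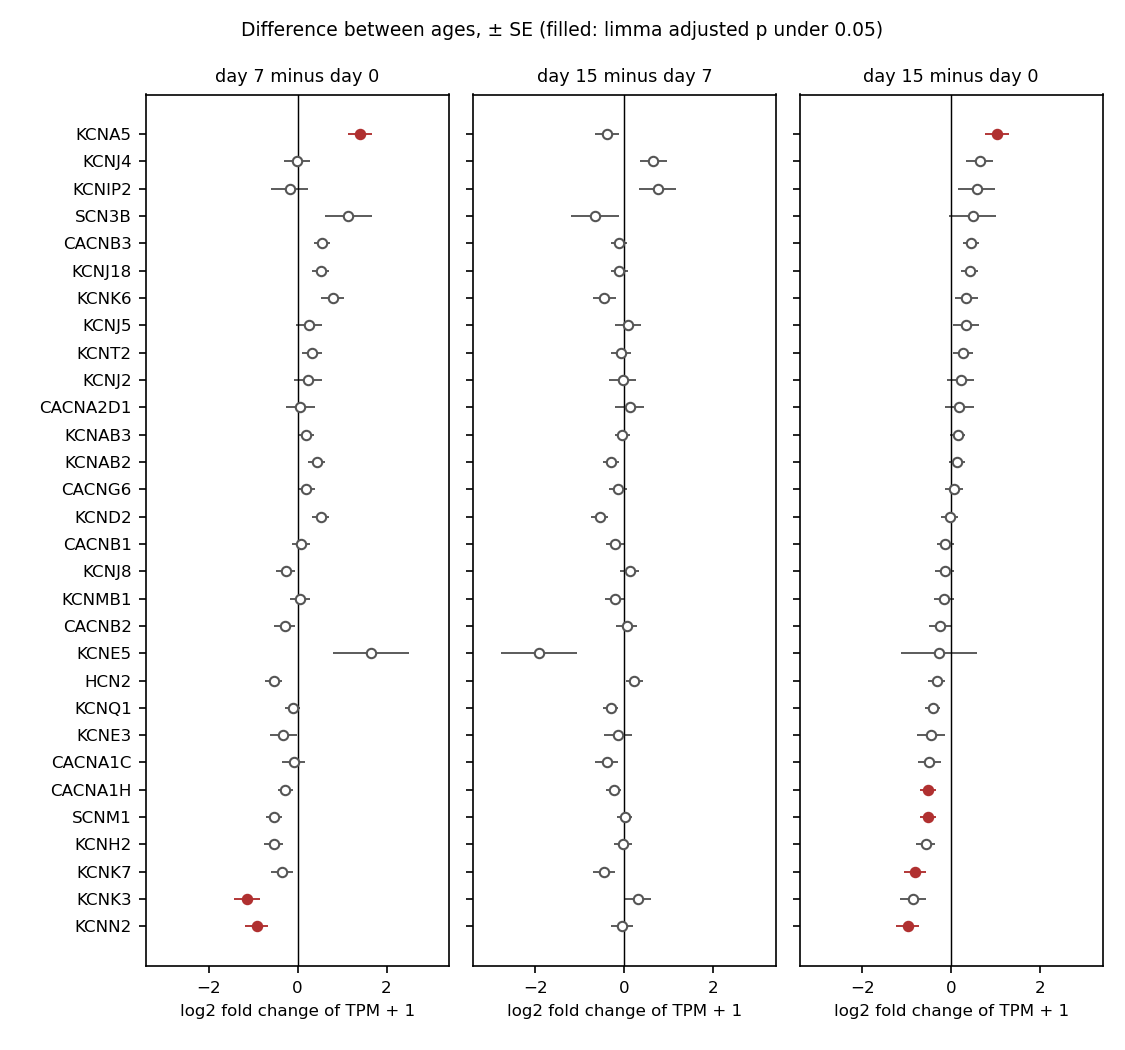
Log2 fold change of TPM + 1 with its SE for 30 of the 32 members in the 3 comparisons, ordered by day 15 minus day 0, with filled red points for a limma adjusted p under 0.05. KCNA5 lies at 1.41 and 1.03 against day 0, KCNN2 at -0.92 and -0.98, and no point is filled for day 15 minus day 7.

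Among the sodium channel genes, the member SCN3B, a beta subunit that modulates gating, was uneven. It had 0.555, 0.465 and 0.880 TPM in newborns, 1.37, 9.63 and 0.808 TPM at day 7, and 0.425, 2.69 and 1.2 TPM at day 15. One library, day 7 replicate 5, stood far above the rest, and the log2 fold change at day 7 against day 0 was 1.14 ± 0.53 (SE) with it (limma adjusted p = 0.155) and 0.35 without it (limma adjusted p = 0.499). Of the day 7 libraries, it also had the highest summed TPM of atrial, fibroblast, conduction system and nodal, and macrophage and leukocyte markers. It did not have the highest sum of endothelial, cardiomyocyte, smooth muscle and pericyte, erythroid or neuronal markers. By mean deviation on the log2 scale, it was highest for endothelial markers too (0.30, against 0.17 and 0.11). The part of these cell types in the SCN3B values was not tested. SCN4B, another beta subunit, was below the expression rule. It was listed at 1.39, 0.454 and 1.65 TPM in newborns, 0.302, 0.137 and 0.107 TPM at day 7 and 0.145, 0.114 and 0.0855 TPM at day 15, with no overlap between the newborn and older libraries. In a fit without the expression filter, SCN4B had a log2 fold change of -0.83 at day 7 and -0.91 at day 15 against day 0 (limma adjusted p = 0.0413 and 0.0226).

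The calcium channel genes were dominated by the cardiac L-type complex, made of the pore CACNA1C (Cav1.2), the beta subunit CACNB2 and the alpha2delta subunit CACNA2D1. CACNA1C had 19.0, 10.2 and 22.2 TPM in newborns, 13, 17.5 and 15.7 TPM at day 7, and 10.2, 11.7 and 12.3 TPM at day 15. All 3 day 15 libraries lay below all 3 day 7 libraries, and day 0 replicate 5 was as low as they were. The fold change at day 15 against day 0 was -0.49 ± 0.25 and did not pass (limma adjusted p = 0.169). Without day 0 replicate 5, the lowest newborn library for this gene, it was -0.80 ± 0.20 and passed (limma adjusted p = 0.0148). It did not pass without day 7 replicate 5 (limma adjusted p = 0.18) or without day 15 replicate 1 (limma adjusted p = 0.314).

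The accessory subunits of the L-type channel did not pass in any comparison. CACNB2 had 25.9, 18.4 and 34.1 TPM in newborns, 18.4, 23.9 and 19.6 TPM at day 7, and 17.2, 28.4 and 19.5 TPM at day 15. CACNA2D1 had 6.33, 8.81 and 11.4 TPM in newborns, 6.64, 9.87 and 11 TPM at day 7, and 5.05, 12.5 and 14.7 TPM at day 15. CACNG6, of the gamma subunit family, had 13.5, 11.7 and 14.5 TPM in newborns, 13.2, 16.9 and 16.0 TPM at day 7, and 10.3, 16.0 and 15.8 TPM at day 15. In each of the 3 genes the ages overlapped, and replicate 1 was the lowest at day 15. CACNB1, the beta subunit best known from skeletal muscle, stood at 1.07 to 2.09 TPM over all libraries. CACNB3, another beta subunit, was low at 0.554 ± 0.236, 1.28 ± 0.290 and 1.09 ± 0.160 TPM. It met the expression rule through day 7 and day 15 libraries alone, so higher values at the later ages were a condition of its entry. Its newborn libraries lay below the others, and it missed the threshold at day 7 (0.55 ± 0.18, limma adjusted p = 0.0571). It passed there after median-of-ratios scaling (0.57, limma adjusted p = 0.0327) but not after quantile normalization (0.38, limma adjusted p = 0.127).

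CACNA1H, the pore of the T-type channel Cav3.2, which opens at more negative voltages and is known from fetal and nodal heart muscle, was lower at day 15 than at day 0. It had 1.69, 1.56 and 2.19 TPM in newborns, 1.21, 1.51 and 1.22 TPM at day 7, and 1.04, 0.799 and 1.04 TPM at day 15. Each age lay below the one before it, with no overlap between adjacent ages. The log2 fold change at day 15 against day 0 was -0.52 ± 0.17 (limma adjusted p = 0.0438). The call is weak, since it was lost in 13 of 20 alternatives (adjusted p up to 0.271), including the fit without any 1 library other than day 0 replicate 5. Another T-type gene, CACNA1G, was below the expression rule, with 0.328 ± 0.131, 0.783 ± 0.400 and 0.895 ± 0.200 TPM at day 0, 7 and 15.

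Among the voltage-gated potassium channel pores, KCNA5 had the smallest adjusted p at day 7 against day 0 and in the F test. It encodes Kv1.5, the pore of the ultrarapid delayed rectifier current, which in the human heart is known as an atrial current. KCNA5 had 4.02, 9.62 and 4.47 TPM in newborns, 19.5, 15.5 and 15.3 TPM at day 7, and 15.6, 12.4 and 10.2 TPM at day 15. Each of the 6 older libraries lay above each of the 3 newborn ones, and newborn replicate 5 was the closest to them. The log2 fold change was 1.41 ± 0.27 at day 7 against day 0 (limma adjusted p = 0.00784) and 1.03 ± 0.27 at day 15 against day 0 (limma adjusted p = 0.0178).

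The day 7 call of KCNA5 held in all 21 alternative settings, with adjusted p between 5.05e-04 and 0.0488. The day 15 call was lost with the replicate number as a block (adjusted p = 0.185 by limma) and without day 0 replicate 4 (adjusted p = 0.0684), day 0 replicate 6 (0.0907) or day 15 replicate 1 (0.0563). The difference between the first and the second step, 1.80 on the log2 scale, did not pass (limma adjusted p = 0.0737). Atrial markers, whose summed level was 604 to 3000 TPM in newborns, 196 to 2390 TPM at day 7 and 213 to 699 TPM at day 15 over the 8 genes of that list in the table, were highest in replicate 5 of day 0 and of day 7. NPPA had 349, 2090 and 495 TPM in newborns, 250, 1450 and 37.2 TPM at day 7 and 6.79, 200 and 59.8 TPM at day 15. KCNA5 is itself on that list. In newborns both KCNA5 and NPPA were highest in replicate 5. At day 7 KCNA5 had 15.5 TPM in replicate 5 and 15.3 TPM in replicate 6, where NPPA had 1450 and 37.2 TPM. The part of atrial tissue in the KCNA5 values was not tested.

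Smooth muscle markers were lower with age too, and their part in the changes of members that fell was not tested. The summed level of a list of 10 smooth muscle and pericyte genes was 492 to 705 TPM in newborns, 366 to 475 TPM at day 7 and 304 to 331 TPM at day 15. At day 15 against day 0, 1 of 10 was higher and 5 lower (limma adjusted p under 0.05), beside 5.53% and 18.4% of all genes tested. The lower genes with the smallest adjusted p were TAGLN, MYH11, ACTA2 and CNN1, all of smooth muscle, while most pericyte genes of the list were not called. After median-of-ratios scaling, where 50.3% of all genes called were higher, 1 of the 10 was higher and 4 lower there. The beta subunit of the smooth muscle large-conductance potassium channel, KCNMB1, did not pass, with 1.28, 1.18 and 1.04 TPM in newborns, 2.07, 1.29 and 0.631 TPM at day 7, and 0.684, 1.04 and 1.11 TPM at day 15. The 1 higher gene on the deposited scale was ABCC9, and KCNJ8, also on that list, did not pass. In bulk tissue, fewer cells of a type and less RNA per cell cannot be told apart. The cardiomyocyte markers measured (8 of 10 listed) had a summed level of 41200 to 46600, 38100 to 48600 and 40200 to 43200 TPM at the 3 ages, and the labelled tissue thus carries its muscle markers at every age. On the deposited scale 0 of the 8 passed by limma (2 had an unadjusted p under 0.05 at day 7 and 1 at day 15, both against day 0), while after median-of-ratios scaling 1 was called higher at day 7 and 2 at day 15, both against day 0, and some were called under each of the 3 other scalings.

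The pores of the delayed rectifiers were abundant. KCNH2, the hERG channel of the rapid component, had 35.1, 34.6 and 43.2 TPM in newborns, 25.5, 27.4 and 23.7 TPM at day 7, and 20.3, 34.5 and 22.2 TPM at day 15. The newborn libraries lay above all older ones, by a narrow margin over day 15 replicate 2. The log2 fold change of -0.54 ± 0.21 at day 7 did not pass on the deposited scale (limma adjusted p = 0.0904), and neither did -0.57 ± 0.21 at day 15 (limma adjusted p = 0.0635). It passed at day 7 after median-of-ratios scaling (-0.47, limma adjusted p = 0.0191) and quantile normalization (-0.37, 0.0407). At day 15 it passed with neither (limma adjusted p = 0.0678 and 0.101). Without the most abundant row it passed at day 7 (-0.46, limma adjusted p = 0.0347) and at day 15 (-0.42, 0.0457). Without the mitochondrial and 20 most abundant rows it passed at neither age (limma adjusted p = 0.0533 and 0.0837).

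KCNQ1, the pore of the slow component, had 30.5, 33.6 and 38.4 TPM in newborns, 35.4, 32.0 and 27.7 TPM at day 7, and 24.3, 27.4 and 23.9 TPM at day 15. The day 15 libraries were the lowest, without passing (-0.42 ± 0.17 against day 0, limma adjusted p = 0.0854). Its partner KCNE1, in the row ENSSSCG00000012049, had 16.8, 32.0 and 22.2 TPM in newborns, 49.2, 39.7 and 34.3 TPM at day 7, and 25.5, 42.2 and 23.2 TPM at day 15. All day 7 values lay above all day 0 values, and the log2 fold change of 0.80 ± 0.27 missed the threshold (limma adjusted p = 0.0590).

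**Figure D3:**
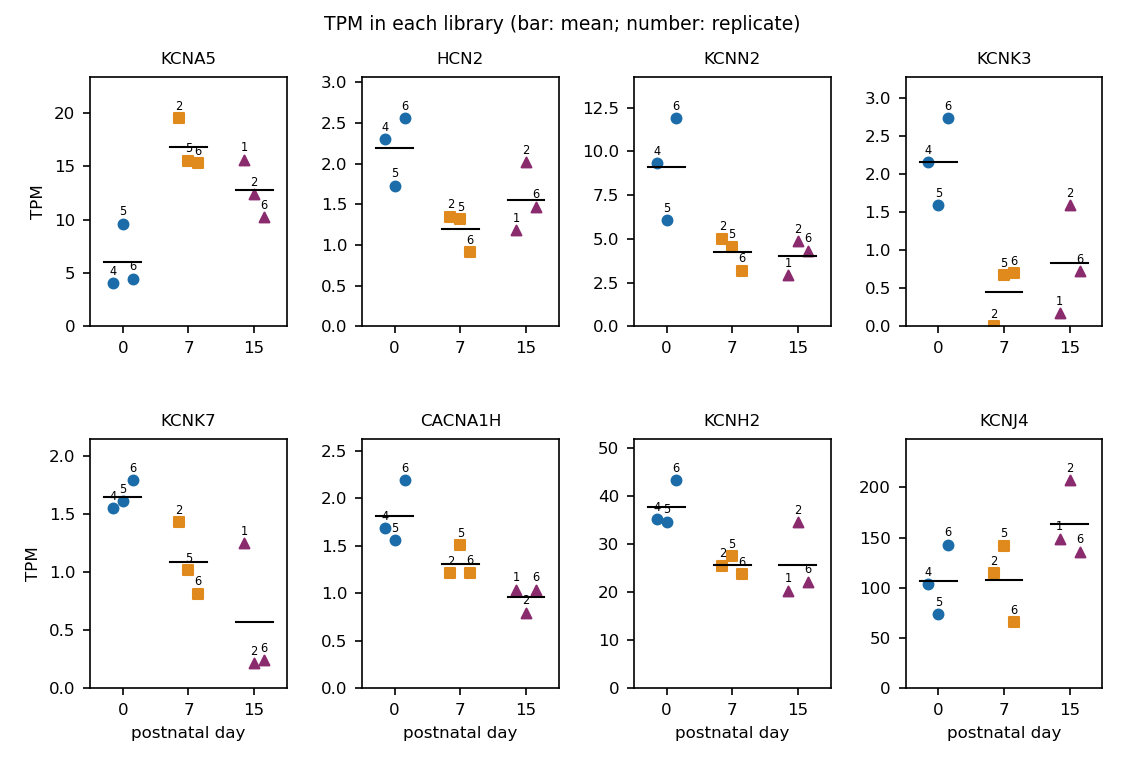
TPM in each library (vertical axis) against postnatal day for KCNA5, HCN2, KCNN2, KCNK3, KCNK7, CACNA1H, KCNH2 and KCNJ4, with the replicate number beside each point and a bar at the mean of 3 libraries. KCNA5 is at 4.02 to 9.62 TPM at day 0 and at 10.2 to 19.5 TPM later, while day 0 has the highest mean for HCN2, KCNN2, KCNK3, KCNK7, CACNA1H and KCNH2.

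The transient outward complex was measured mostly through its accessory subunit. KCNIP2, the calcium-binding partner of Kv4 channels, had 7.32, 14.2 and 7.70 TPM in newborns, 5.70, 19.9 and 4.37 TPM at day 7, and 13.3, 17.5 and 12.6 TPM at day 15. The Kv4 pore KCND2 had 0.879, 1.32 and 1.13 TPM in newborns, 1.98, 1.93 and 2.11 TPM at day 7, and 0.664, 1.61 and 0.986 TPM at day 15, and the other Kv4 pore, KCND3, was listed at 0 in 6 of 9 libraries. KCNIP2 thus stood at 2.07 to 20 times the TPM of KCND2. Within day 0 and within day 7, KCNIP2 was highest in replicate 5, the library with the most atrial marker TPM at each of these ages, whose part in the KCNIP2 values was not tested. It did not pass in any comparison. Without day 7 replicate 5, its difference at day 15 against day 7 was 1.35 ± 0.28, against 0.75 ± 0.42 with it (limma adjusted p = 0.0567 and 0.466).

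KCND2 was higher at day 7 than in either other age in every library. Its log2 fold change was 0.52 ± 0.19 at day 7 against day 0 and -0.55 ± 0.19 at day 15 against day 7, and neither passed (limma adjusted p = 0.0849 and 0.279). The first did pass after median-of-ratios scaling (0.55, limma adjusted p = 0.0238) but not after quantile normalization (0.36, limma adjusted p = 0.0856). The contrast of the 2 steps, 1.07, missed the threshold as well (limma adjusted p = 0.121) and passed in 1 alternative, without the mitochondrial and 20 most abundant rows. No member passed the contrast of the steps on the deposited scale (0 of 32 by limma, beside 1.92% of all genes, 1.53% higher and 0.391% lower, and 7 of 32 at an unadjusted p under 0.05).

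KCNE5 spanned 109-fold over the libraries, the widest spread among members never listed at 0. It encodes a single-span subunit that suppresses KCNQ1 current in expression systems. It had 0.223, 24.2 and 0.410 TPM in newborns, 17.1, 10.1 and 5.64 TPM at day 7, and 1.42, 2.21 and 2.18 TPM at day 15. Newborn replicate 5 held the highest value of all 9 libraries and the other 2 newborns the lowest. With all libraries no comparison passed, and the log2 fold change at day 7 against day 0 was 1.65 ± 0.86 (limma adjusted p = 0.198). Without newborn replicate 5 it was 3.07 ± 0.34 (limma adjusted p = 3.24e-04), the value at day 15 against day 7 was -1.92 ± 0.30 (limma adjusted p = 0.0296), and the value at day 15 against day 0 turned to 1.15 ± 0.34 (limma adjusted p = 0.0276) in place of -0.27 ± 0.86.

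The erythroid markers had the same 3 highest libraries. Their summed TPM over the 6 listed genes in the table was 525, 1270 and 395 at day 0, 1220, 858 and 555 at day 7, and 435, 540 and 660 at day 15. Newborn replicate 5 was highest, followed by day 7 replicates 2 and 5, as for KCNE5, while the low libraries of the marker sum and of KCNE5 differed. Their part in the KCNE5 values was not tested. The other single-span subunit among the members, KCNE3, did not pass and averaged 4.89 ± 0.669, 4.08 ± 2.52 and 3.42 ± 1.46 TPM at day 0, 7 and 15, and the beta subunit KCNAB3 averaged 2.15 ± 0.319, 2.62 ± 0.228 and 2.49 ± 0.354 TPM.

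**Figure D4:**
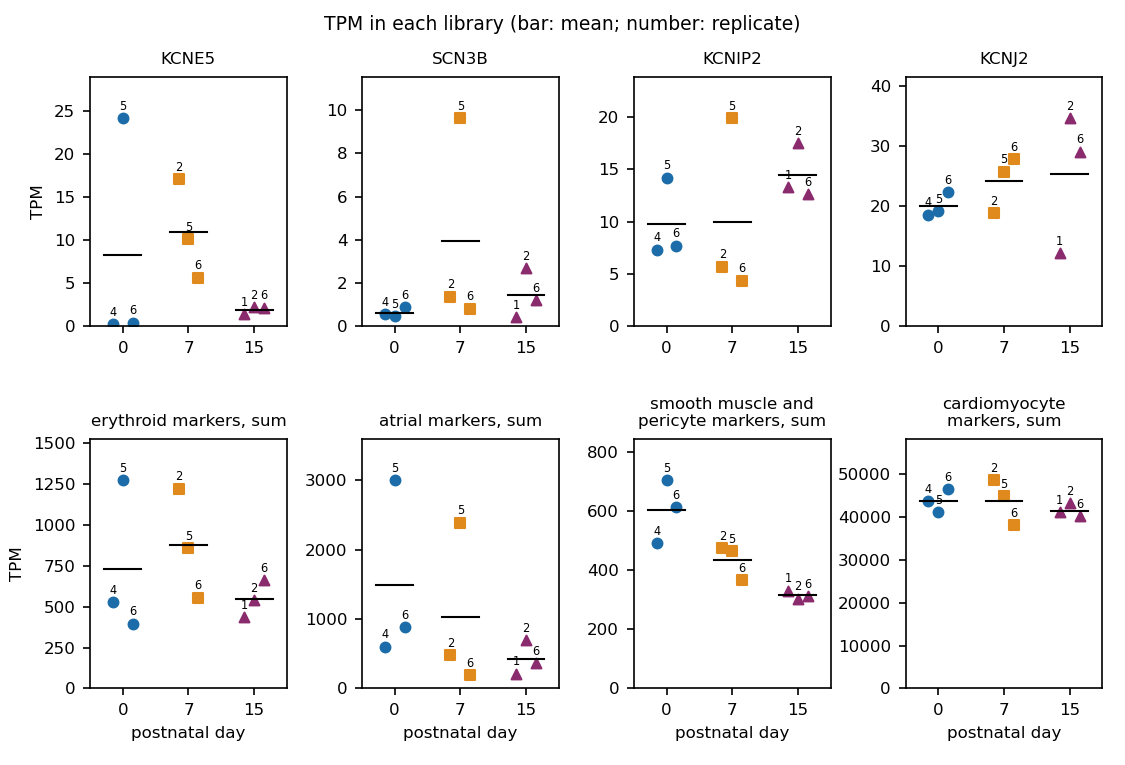
TPM in each library against postnatal day for KCNE5, SCN3B, KCNIP2 and KCNJ2 (upper row) and summed TPM of marker lists (lower row), with the replicate number beside each point and a bar at the mean of 3 libraries. KCNE5 reaches 24.2 TPM in day 0 replicate 5, where the erythroid sum is 1270 TPM and the atrial sum 3000 TPM, while the cardiomyocyte sum stays between 38100 and 48600 TPM.

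The inward rectifiers, which pass potassium best near the resting potential, held the largest summed level of any class, 185 ± 44.2, 194 ± 27.8 and 256 ± 51.3 TPM at day 0, 7 and 15. KCNJ4, which encodes Kir2.3, had 104, 73.6 and 143 TPM in newborns, 115, 142 and 66 TPM at day 7, and 149, 207 and 136 TPM at day 15. The day 15 libraries were high and overlapped with the others, since the highest libraries of day 0 and day 7 reached 143 and 142 TPM. The fold change at day 15 against day 0 was 0.64 ± 0.30 on the deposited scale (limma adjusted p = 0.135). It passed after median-of-ratios scaling (0.89, limma adjusted p = 0.0304), quantile normalization (0.91, 0.0204) and rescaling without the mitochondrial and 20 most abundant rows (0.89, 0.0205). As a share of the members' summed TPM, KCNJ4 held 25.4% ± 4.61 at day 0, 25.4% ± 6.52 at day 7 and 36.8% ± 4.51 at day 15.

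KCNJ2, which encodes Kir2.1, the best known carrier of the ventricular resting current in other species, was lower than KCNJ4 in every library. It had 18.6, 19.2 and 22.4 TPM in newborns, 18.9, 25.8 and 27.9 TPM at day 7, and 12.2, 34.7 and 29.1 TPM at day 15. The ratio of KCNJ4 to KCNJ2 was between 2.36 and 12.2, and the day 15 libraries of KCNJ2 spanned its whole range. Without day 15 replicate 1, the library with the largest share of the most abundant row, KCNJ2 differed by 0.64 ± 0.20 at day 15 against day 0 (limma adjusted p = 0.0495), against 0.21 ± 0.31 with it (limma adjusted p = 0.653). KCNJ18 averaged 0.813 ± 0.254, 1.60 ± 0.329 and 1.42 ± 0.351 TPM at day 0, 7 and 15, and which gene this row measures is uncertain. The human genes KCNJ18 and KCNJ12 are nearly identical, and the RefSeq table for the pig lists KCNJ12 and no KCNJ18, so the row may hold KCNJ12. Where reads common to both would be assigned is not stated in the sources used here.

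The remaining inward rectifiers are gated by other signals. KCNJ5, the Kir3.4 subunit of the acetylcholine-activated channel, had 40.0, 23.7 and 41.5 TPM in newborns, 41.0, 30.8 and 53.7 TPM at day 7, and 31.1, 42.6 and 61.6 TPM at day 15. Its partner KCNJ3, in the row ENSSSCG00000036078, averaged 6.36 ± 1.42, 9.80 ± 2.22 and 9.63 ± 3.75 TPM at day 0, 7 and 15. Neither passed in any comparison. KCNJ8, the Kir6.1 pore of ATP-sensitive channels, had 19.1, 24.7 and 22.2 TPM in newborns, 21.1, 19.2 and 14.3 TPM at day 7, and 16.7, 25 and 18.0 TPM at day 15, and did not pass. Its regulatory partner ABCC9, the sulfonylurea receptor SUR2, rose to 19.4 ± 3.64 TPM at day 7, against 9.53 ± 0.780 TPM in newborns (0.94 ± 0.20, limma adjusted p = 0.0110).

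**Figure D5:**
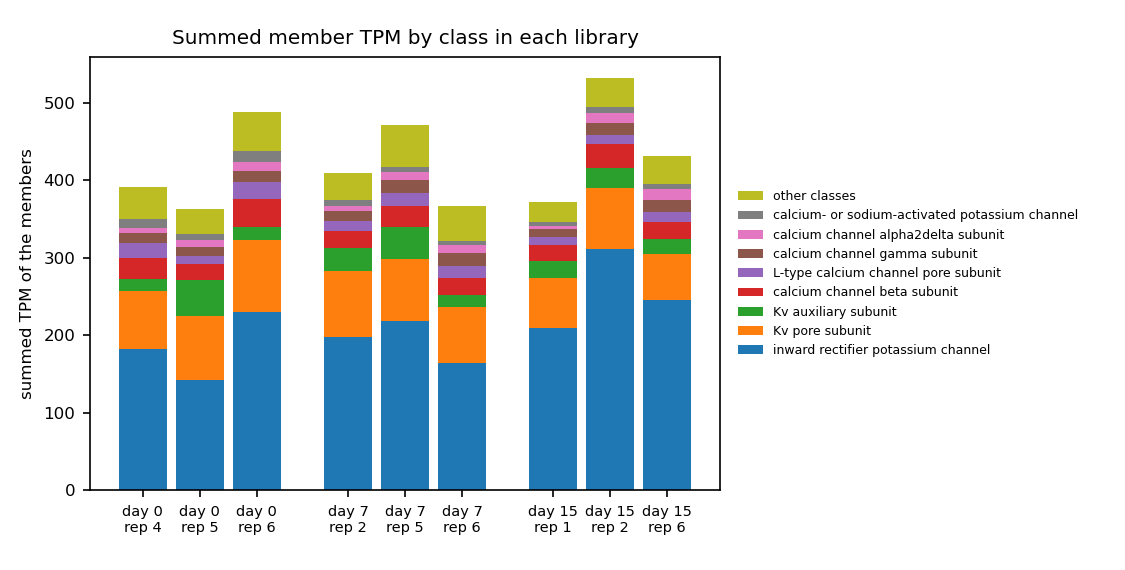
Summed TPM of the 32 members in each library, stacked by class, with libraries grouped by age from day 0 to day 15. Inward rectifiers form the largest part in every library and reach 311 TPM in day 15 replicate 2, against 142 TPM in day 0 replicate 5.

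Tandem-pore channels carry leak current. KCNK3, the acid-sensitive channel TASK-1, had 2.15, 1.59 and 2.73 TPM in newborns, 0, 0.672 and 0.693 TPM at day 7, and 0.174, 1.59 and 0.722 TPM at day 15. All newborn values lay above all day 7 values, 1 of which is listed at 0. KCNK3 met the expression rule through these newborn libraries and 1 at day 15, so a newborn level above that of day 7 was a condition of its entry. The log2 fold change at day 7 against day 0 was -1.14 ± 0.29 (limma adjusted p = 0.0240). The call was lost in 6 of 20 alternatives (adjusted p up to 0.109). Among them were the fit without the expression filter and those that leave out newborn replicate 4 or 6 or day 7 replicate 2. At these low levels the call depends on the pseudocount. At day 15 against day 0 the difference was -0.85 ± 0.29 (limma adjusted p = 0.0546).

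KCNK7, another gene of this family, had 1.55, 1.61 and 1.79 TPM in newborns, 1.43, 1.02 and 0.816 TPM at day 7, and 1.25, 0.217 and 0.244 TPM at day 15. The day 15 libraries split, with replicate 1 near the day 7 values. The day 15 difference from day 0 was -0.81 ± 0.24 (limma adjusted p = 0.0280) and was lost in 9 of 20 alternatives, including all 4 other scalings and the fits that leave out newborn replicate 4 or 6 or day 15 replicate 2 or 6. KCNK6, which encodes TWIK-2, had 0.831, 2.32 and 1.17 TPM in newborns, 2.32, 2.69 and 4.57 TPM at day 7, and 1.44, 2.33 and 2.31 TPM at day 15. Newborn replicate 5 nearly reached the day 7 values, and KCNK6 missed the threshold at day 7 against day 0 (0.79 ± 0.26, limma adjusted p = 0.0568), but not without newborn replicate 5 (1.04 ± 0.25, limma adjusted p = 0.0154).

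KCNN2, the small-conductance calcium-activated channel SK2, was lower at both later ages. It had 9.33, 6.07 and 11.9 TPM in newborns, 5.01, 4.55 and 3.18 TPM at day 7, and 2.92, 4.87 and 4.32 TPM at day 15. No newborn library overlapped with the older ones, and newborn replicate 5 was the lowest of its age. The log2 fold change was -0.92 ± 0.25 at day 7 (limma adjusted p = 0.0285) and -0.98 ± 0.25 at day 15 (limma adjusted p = 0.0159), both against day 0. The day 7 call was lost in 6 of 21 alternatives (adjusted p up to 0.132), among them the fits without day 0 replicate 4 or 6 or day 7 replicate 5 or 6. The day 15 call was lost in 3 of 21, with the replicate number as a block (adjusted p = 0.109 by limma), without day 0 replicate 6 (0.0858) and without day 15 replicate 1 (0.0503). KCNT2, a sodium-activated channel, did not pass and averaged 0.627 ± 0.303, 1.02 ± 0.0754 and 0.976 ± 0.497 TPM.

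HCN2 was the only pacemaker channel gene among the members. It had 2.3, 1.73 and 2.56 TPM in newborns, 1.35, 1.32 and 0.910 TPM at day 7, and 1.18, 2.02 and 1.47 TPM at day 15. The day 7 values lay below all newborn values, and the fold change of -0.54 ± 0.19 missed the threshold on the deposited scale (limma adjusted p = 0.0684). It passed under each of the 4 other scalings, with a limma adjusted p of 0.0282 after median-of-ratios scaling. Of 10 conduction system and nodal markers, 3 met the expression rule. SCNM1, the splicing protein, had 2.39, 2.58 and 3 TPM in newborns, 1.81, 1.42 and 1.39 TPM at day 7, and 1.36, 1.87 and 1.44 TPM at day 15. Its newborn libraries lay above all others. It was lower at day 15 than at day 0 by a log2 fold change of -0.52 ± 0.17 (limma adjusted p = 0.0446), a call lost in 14 of 20 alternatives, including the fits without any 1 library other than day 15 replicate 2.

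Among the members, 5 have a neighbour of the same families on the chromosome. In the RefSeq annotation of Sscrofa11.1, 19 pairs of neighbouring protein-coding genes both belong to these families, 5 of the pairs hold a member and 0 hold a pair of members. KCNA5, at a mean of 11.9 TPM, lies next to KCNA1 (0.00296 TPM), KCNJ5 (40.7 TPM) next to KCNJ1, which is listed at 0, and CACNG6 (14.2 TPM) next to CACNG7 (0.295 TPM). KCNMB1 (1.15 TPM) lies next to KCNIP1 (0.140 TPM).

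Among proteins that anchor or regulate these channels, AHNAK, LRRC10, ABCC9 and NEDD4L rose in the first week. Of 30 listed partners, 19 were tested, and 4 rose and 0 fell at day 7 against day 0 (7.67% of all genes were called higher and 8.88% lower), 0 passed at day 15 against day 7, and 2 rose and 1 fell at day 15 against day 0 (5.53% of all genes were called higher and 18.4% lower). After median-of-ratios scaling 7 rose and 0 fell at day 7, and 6 rose and 0 fell at day 15, both against day 0. With that scaling more of all genes were called too, and 50.4% and 50.3% of the called ones were higher. The shares in brackets are those of the deposited scale. Fibroblast and endothelial markers were higher at day 7 too. The summed level of 10 fibroblast genes was 1680 to 2330 TPM at day 7, against 957 to 1480 TPM in newborns, and 3 of them rose and 0 fell (limma adjusted p under 0.05). The summed level of 9 endothelial genes was 328 to 359 TPM at day 7, against 229 to 269 TPM in newborns, and 2 rose and 1 fell. Their part in the changes of the partners, and of the members, was not tested. AHNAK, a large scaffold that binds the L-type beta subunit, had 56.1, 73.8 and 79.7 TPM at day 7, against 34.5, 33.4 and 34.6 TPM in newborns (1.00 ± 0.18, limma adjusted p = 0.00730, kept in all 21 alternatives). LRRC10, a heart muscle protein that modulates L-type current, had 80.2, 100 and 110 TPM at day 7, against 18.8, 50.8 and 22.4 TPM in newborns (1.75 ± 0.35, limma adjusted p = 0.00964, lost without day 0 replicate 6 at 0.0574). NEDD4L, a ubiquitin ligase of sodium channels, rose by 0.77 (limma adjusted p = 0.0357, lost in 8 of 21 alternatives, with an adjusted p up to 0.132 without day 0 replicate 4).

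Among other ion channels and connexins, no gene passed in the first week on the deposited scale. Of 30 listed, 24 were tested, 0 passed at day 7 against day 0 and at day 15 against day 7, and at day 15 against day 0, 0 rose and 3 fell (5.53% of all genes were called higher and 18.4% lower). Those 3 were ORAI1, the pore of store-operated calcium entry, the lysosomal channel TPCN2 and the volume-regulated anion channel subunit LRRC8A. ORAI1 had 9.72 ± 1.47 TPM at day 15 and 17.0 ± 2.16 TPM in newborns (-0.75 ± 0.18, limma adjusted p = 0.0124, lost in 3 of 21 alternatives). TPCN2 differed by -0.74 ± 0.19 (limma adjusted p = 0.0167, lost in 4 of 21) and LRRC8A by -0.69 ± 0.19 (limma adjusted p = 0.0253, lost in 5 of 21). With median-of-ratios scaling, 5 of the 24 rose and 0 fell at day 7 against day 0, and 3 rose and 3 fell at day 15 against day 0. More of all genes were called on that scale too, and 50.4% and 50.3% of the called ones were higher.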

How the data were processed

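The authors deposited 1 table of length-normalised abundances (TPM) holding a column for each of the 9 libraries, none of which was left out. Per the submitters' processing notes, the tools were Trimmomatic 0.33, HISAT2 2.0.5 and kallisto 0.43.1, with no role or order stated. No genome build, annotation or use of strand is stated there. TPM is a share of each library and keeps no depth, so no counting interval is given.

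Rows with at least 1 TPM in at least 3 libraries were tested (12268 genes). limma 3.58.1 in R 4.3.3 was fitted to log2(TPM + 1) of all 9 libraries, 1 mean per age, with a mean-variance trend and 6 residual degrees of freedom. Fold changes on that scale understate the change of genes with low TPM. P-values were adjusted over all genes tested (Benjamini-Hochberg). An exact permutation of 3 against 3 libraries cannot go below 0.10 and was not used. The step was tested on simulated data. The members and gene lists were chosen with earlier results of these data known. Values per library are given for members past the threshold, the 2 most abundant members of a class and listed action potential genes, and at most 4 genes with the smallest adjusted p are named from other lists (NEDD4L was added after its value was seen). Gene names for Ensembl rows came from reference tables (915 of 7534 matched, 6 of them of these families). No sequence is shown. Some genes that count in the totals are not reported here by name.

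Alternatives were other pseudocounts (0.1 and 5), filters, scalings, moderation settings, a fit on 2 ages, a block for replicate number, and omission of single libraries.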

Additional observations from a re-analysis of the deposited data

How the results depend on the processing

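The number of members called depends on the scale and on single newborn libraries. The share of all genes called under the same setting is not given beside the counts in this section. They are therefore no result about the members. At day 7 against day 0 (4 members on the deposited scale) there were 10 after median-of-ratios scaling and without the most abundant row, 9 without the mitochondrial and 20 most abundant rows, 7 after quantile normalization, 2 with a pseudocount of 0.1, 2 of 15 with a mean of at least 5 TPM, 1 without a filter and 1 with the replicate number as a block. At day 15 against day 0 (6 members) there were 2 with a mean of at least 5 TPM and 2 with the replicate block. The F test (4 members) called 9 after median-of-ratios scaling, 8 without the most abundant row, 7 after quantile normalization, 2 without a filter, 2 with a mean of at least 5 TPM and 0 with the replicate block. The contrast of the steps (0 members) called 1 without the mitochondrial and 20 most abundant rows. The block leaves 2 residual degrees of freedom. Deviations from the age means in libraries with the same replicate number at different ages had correlations across genes from -0.213 to 0.170 over 5 pairs. Without pairs of unlike number beside them, these values cannot show whether a number marks a shared source. Replicate 5 had the highest atrial marker sum at both day 0 and day 7. What the numbers mean is not in the labels, and they were not taken to pair samples.

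Leaving out 1 library gave 1 to 8 members at day 7 against day 0, 0 to 1 at day 15 against day 7, 0 to 8 at day 15 against day 0, 0 to 7 in the F test and 0 to 2 in the contrast of the steps. The highest counts came without day 0 replicate 5 (in the F test also without day 15 replicate 2). At day 7 against day 0 there was 1 call without day 0 replicate 4 and 1 without replicate 6, and 2 without each of the 3 day 7 libraries. At day 15 against day 0 there were 0 without day 0 replicate 6, 2 without replicate 4, and 3 without day 15 replicate 1 or replicate 6. The F test called 0 without day 0 replicate 4 or 6. The cause was not tested. None of the 7 called members changed direction in any of these settings.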

Other observations

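Among transcription factors with known roles in channel expression, 8 of 22 were lower at day 15 than at day 0. Of 25 listed, 22 were tested. At day 7 against day 0, 0 rose and 1 fell, and 0 passed at day 15 against day 7. At day 15 against day 0, 0 rose and 8 fell, where 18.4% of all genes tested were called lower on the deposited scale. After median-of-ratios scaling 0 rose and 6 fell there, and 50.3% of all genes called were higher. The median log2 fold change of the 22 at day 15 against day 0 was -0.50, and that of all genes -0.19. Of the 8 calls on the deposited scale, the least stable was lost in 12 of 21 alternatives. IRX5, which represses the Kv4 gene Kcnd2 in the mouse ventricle, had 2.38, 9.09 and 1.55 TPM at day 15, against 8.5, 28.8 and 13.4 TPM in newborns (-1.85 ± 0.48, limma adjusted p = 0.0183, lost in 5 of 21 alternatives, with an adjusted p up to 0.0699 without day 15 replicate 6). IRX4, a factor of ventricular identity, fell to 13 ± 2.73 TPM at day 15, against 26.0 ± 5.66 TPM in newborns (-0.94 ± 0.24, limma adjusted p = 0.0173, lost in 3 of 21, with an adjusted p up to 0.0920 without day 0 replicate 6). GATA4, a cardiac zinc finger factor, had 36.5 ± 5.95 TPM at day 15 and 69.4 ± 9.62 TPM in newborns (-0.91 ± 0.18, limma adjusted p = 0.00608, kept in all 21).

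Family rows below the expression rule were fitted together with all rows above 0 in any library. Of 95 such rows, 3 were called higher and 3 lower at day 7 against day 0, 0 at day 15 against day 7, and 0 higher and 5 lower at day 15 against day 0, beside 6.98%, 0.0646% and 12.8% of all 18573 rows called in either direction (limma adjusted p under 0.05). Besides SCN4B, these included KCNMA1, the pore of the large-conductance calcium-activated channel of smooth muscle, at 0.559 ± 0.108, 0.155 ± 0.0768 and 0.171 ± 0.0760 TPM at day 0, 7 and 15 (limma adjusted p = 0.0223 at day 7 and 0.0166 at day 15, both against day 0). HCN4, the main pacemaker channel of the sinus node, had 0.283, 0.226 and 0.331 TPM at day 7, against 0.0544, 0.0274 and 0.182 TPM in newborns (limma adjusted p = 0.0485). These levels are far under 1 TPM and their depth is unknown.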
